A study of Mus musculus with 2 samples.

Results

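The AMPA, NMDA and kainate receptor subunits described here are 10 genes of the ionotropic glutamate receptor family: Gria1, Gria2, Gria3 and Gria4 for AMPA receptors, Grin1, Grin2a and Grin2b for NMDA receptors, and Grik2, Grik3 and Grik5 for kainate receptors. They were taken by symbol from a table of 45578 mouse genes, and all 10 were in it and had counts. The rule itself uses gene names and no measured value, although the list was drawn up with earlier results of these data known. Ribosome-protected fragments were collected from whole brain of control mice at postnatal day 5 by RiboLace, in which beads bearing a puromycin analogue capture ribosomes in the act of translation. All mice had the genotype Smn+/-; SMN2tg/0 on an FVB background, with 1 working copy of mouse Smn and the human SMN2 transgene, and there was 1 group of 2 biological replicates with no other condition. Whether a replicate was 1 brain or a pool is not given in the sources used here.

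Ionotropic glutamate receptors are tetrameric cation channels opened by the main excitatory transmitter of the brain. AMPA receptors carry the fast synaptic current, NMDA receptors pass calcium when glutamate and depolarisation coincide, and kainate receptors act on both sides of the synapse. An NMDA receptor needs GluN1, encoded by Grin1, together with GluN2 subunits, and in the forebrain GluN2B prevails around birth while GluN2A becomes abundant over the following postnatal weeks. At that age many synapses still mature, and a change in subunit make-up alters the time course and calcium flow of the current.

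The libraries held 343552 gene-level counts in replicate 1 and 120282 in replicate 2, and after TMM scaling of these library sizes 1 count was worth 2.71 and 8.93 CPM, a count scaled to the library size. The 10 subunits together held 352 counts in replicate 1 and 99 in replicate 2, or 0.103% and 0.0823% of the gene counts. Markers of the brain were present: all 30 listed markers of neurons, glia, microglia and endothelium had counts, and the neuronal list summed to 5848 and 6831 CPM. Of the 25 markers with enough counts for the test used below, 1 differed between libraries, where 4.14% of all tested genes and 0.956% of tested protein-coding genes did. This was Tubb3, a neuronal tubulin, at 1.26 times the CPM in replicate 2 (exact binomial test, adjusted p = 0.00365). The call held with the isoform of longest coding sequence, isoforms summed, DESeq2 size factors, a mean of at least 50 counts, and coding genes alone. Its largest adjusted p among these was 0.0289 by the exact binomial test. That call was lost with library totals (adjusted p = 0.679), with at least 1 count required in each library (adjusted p = 0.952, both by the exact binomial test) and with edgeR's exact test at a preset coefficient of variation (adjusted p = 1). Of the 4 genes listed for liver, muscle and pancreas, Alb, Ckm and Ins2 had 0 counts in both libraries, which allows shares of up to 0.000873% and 0.00249% of counts. The muscle actin Acta1 had 70 and 22 counts; whether fragments of other actins were counted for it was not tested. Levels below are CPM per kilobase of coding sequence, for 1 transcript per gene, the best covered one. All footprints counted for the transcript enter, those on untranslated regions included, and only the divisor is limited to the coding sequence. They combine the amount of messenger RNA with the ribosomes on it, and in whole brain fewer cells of a type and less RNA per cell cannot be told apart.

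Among the AMPA receptor genes, Gria2 had the highest level, Gria1 came next, and Gria4 and Gria3 stood lower per coding length. Gria2 (ENSMUSG00000033981) encodes GluA2, the subunit that makes AMPA receptors nearly impermeable to calcium once its transcript is edited. It had 65 footprints in replicate 1 and 19 in replicate 2, a level of 66.4 (95% exact Poisson interval 51.3 to 84.7) and 64.0 (38.5 to 99.9). The libraries were within 1.73 (SD, n = 2) of a mean of 65.2. Gria1 (ENSMUSG00000020524), encoding GluA1, had 54 and 11 footprints and a level of 44.9 ± 12.5 (SD, n = 2). Its ratio to Gria2 was 0.809 in replicate 1 (95% Clopper-Pearson interval 0.553 to 1.18) and 0.564 in replicate 2 (0.242 to 1.25), so these 2 subunits were not separated in either library. Divided by the whole transcript instead of the coding sequence, Gria1 stood above Gria2, at 1.49 times its level over both libraries, since the Gria2 transcript is 10371 nucleotides long and that of Gria1 5399.

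Gria4 (ENSMUSG00000025892), which encodes GluA4, a subunit known from early postnatal pyramidal cells and from interneurons, had 26 and 8 footprints and levels of 26.0 and 26.4. The mean was 26.2 ± 0.255 (SD, n = 2). Counting error was far wider than this SD, with exact Poisson intervals of 17.0 to 38.1 in replicate 1 and 11.4 to 52.0 in replicate 2. The ratio of Gria4 to Gria2 was 0.392 (0.238 to 0.626) in replicate 1 and 0.412 (0.156 to 0.986) in replicate 2. The interval reached nearly to 1 in the shallower library. Gria3 (ENSMUSG00000001986), encoding GluA3, had 15 and 3 footprints, levels of 15.2 and 10.04, and a ratio to Gria2 of 0.230 (0.122 to 0.407) and 0.157 (0.0298 to 0.533). On these transcripts and coding lengths the intervals of Gria4 and Gria3 lay below 1 in both libraries. On the isoforms with the shortest untranslated regions, those of replicate 2 reached past 1, at 0.712 for Gria4 (0.249 to 1.94) and 0.271 for Gria3 (0.0486 to 1.03). With whole transcript lengths Gria4 was not separated from Gria2 in replicate 1 either, at 0.762 (0.464 to 1.22). As shares of the summed AMPA level, Gria2 held 44.0% ± 4.05, Gria1 29.9% ± 4.85, Gria4 17.7% ± 2.27 and Gria3 8.40% ± 1.47 (each SD, n = 2).

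**Figure D1:**
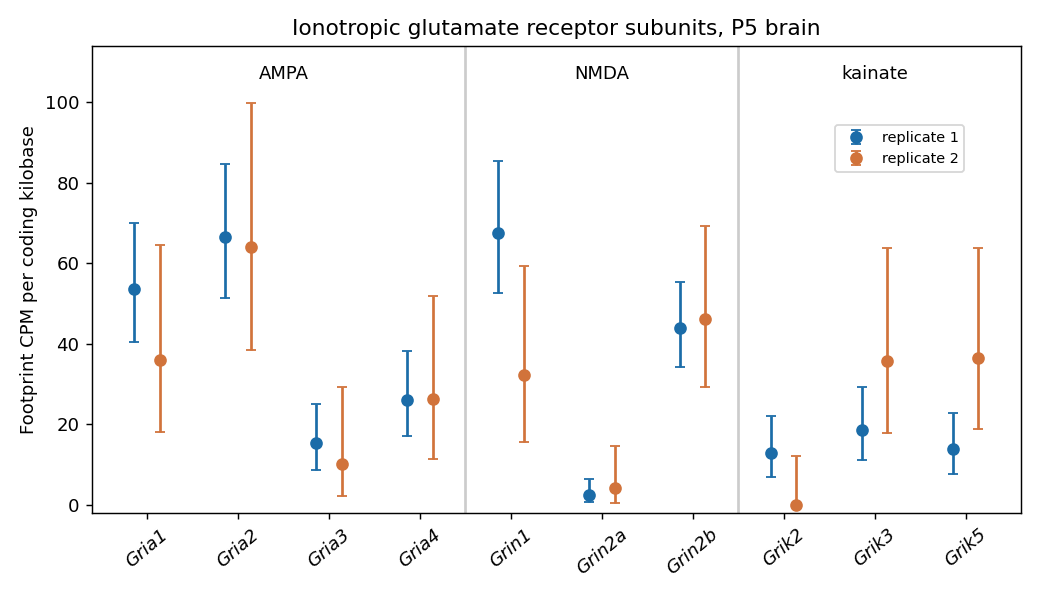
Level of each subunit in CPM per coding kilobase (vertical axis) for the 10 genes by family; blue points are replicate 1, orange points replicate 2, and bars are 95% exact Poisson intervals, which cover counting error only. Gria2 and Grin2b lie close together between libraries, Grin2a is near the bottom at 2.47 and 4.06, and Grik2 is at 0 in replicate 2.

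Of the NMDA receptor genes, Grin2a stood far below Grin1 and Grin2b. On 1 transcript per gene and coding length, the order of Grin1 and Grin2b was not resolved in replicate 2. Their ratio also moved with how isoforms and length were treated. Grin2b (ENSMUSG00000030209), encoding the early postnatal subunit GluN2B, had 72 and 23 footprints, the most of any of the 10 genes in either library. Per coding length this gave 43.9 (34.3 to 55.2) in replicate 1 and 46.2 (29.3 to 69.3) in replicate 2, or 45.0 ± 1.63 (SD, n = 2). Grin2a (ENSMUSG00000059003), encoding GluN2A, the subunit of later postnatal life, had 4 and 2 footprints over a coding sequence of 4395 nucleotides, against 4449 in Grin2b. Its levels were 2.47 (0.672 to 6.32) and 4.06 (0.492 to 14.7), the lowest of the 10 by their mean of 3.26. Coding lengths are nearly equal in this pair, while the whole transcripts are 24061 nucleotides long in Grin2b and 14634 in Grin2a.

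Grin2b exceeded Grin2a 17.8-fold in replicate 1 (95% Clopper-Pearson interval 6.65 to 67.0) and 11.4-fold in replicate 2 (2.81 to 99.4). Both intervals lay above 1, and over both libraries the ratio was 15.6 (6.93 to 43.7). The width of the intervals comes from the 6 footprints of Grin2a. A permutation over 2 libraries cannot give a two-sided p below 0.5, so the ratios carry intervals of counting error and no p-value. The direction held in each library and in each alternative way of counting that gave a value, while the size moved from 9.63 with whole transcript lengths to 40.01 on the isoforms with the shortest untranslated regions.

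The transcripts of this pair end in very long 3' untranslated regions, 18866 nucleotides in Grin2b and 9929 in Grin2a, and isoforms of equal coding length were compared. Such differences are uncertain for single genes: the longer isoform had fewer footprints in the Gria1 pair (by 4 and 5), and, in replicate 1, in a Grik2 pair (by 3) and in a Grin1 pair (by 12). The Grin2b isoform with a 3' region of 2272 nucleotides had 60 and 21 footprints. The longer isoform, with 16577 more nucleotides in all, had 12 and 2 more. That is 0.724 and 0.121 footprints per additional kilobase. All footprints of the shorter isoform, those on its untranslated regions included, came to 13.5 and 4.72 per coding kilobase. Per kilobase of its whole transcript they came to 8.02 and 2.81. For Grin2a, the isoform without annotated untranslated regions had 2 footprints in replicate 1 and 0 in replicate 2, and the 10239 further nucleotides of the longest isoform added 2 in each library. The isoform that is coding sequence alone thus had 2 footprints over both libraries, against 6 on the longest. On these isoforms the ratio of Grin2b to Grin2a was 29.6 (7.86 to 250.3) in replicate 1. In replicate 2, with 0 counts for Grin2a, the lower Clopper-Pearson bound of Grin2b over Grin2a was 5.14. With 3 counts allowed for that 0, the ratio came to 6.92, without the counting error of Grin2b.

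**Figure D2:**
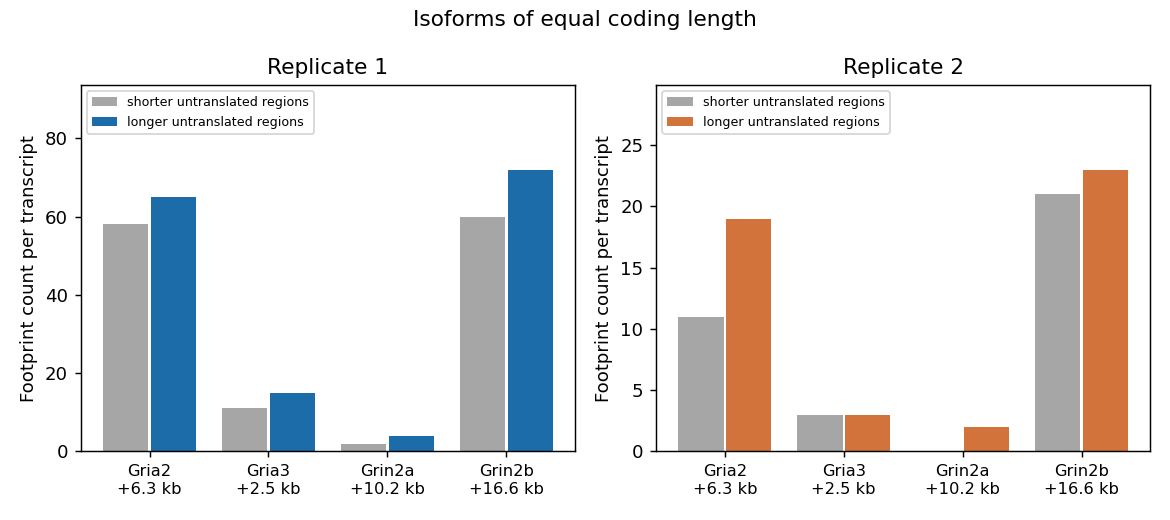
Footprint counts (vertical axis) of 2 isoforms with the same coding length in 4 subunit genes, in replicate 1 (left) and replicate 2 (right); grey bars are the isoform with less untranslated sequence, coloured bars the one with more, and the label gives the difference in kilobases. In Grin2b the longer isoform has 12 and 2 more footprints, while in Grin2a the shorter isoform has 2 and 0 in all.

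Gria2 also has isoforms that differ in the 3' region alone. The isoform with 6345 additional nucleotides there had 65 and 19 footprints against 58 and 11, which is 1.10 and 1.26 per additional kilobase. All footprints of the shorter one came to 21.9 and 4.15 per coding kilobase, and to 14.4 and 2.73 per kilobase of whole transcript. The difference was 7 of 65 footprints in replicate 1 and 8 of 19 in replicate 2. The pair of Grin1 isoforms, Grin1-005 and Grin1-008, differed by as much, 12 and 5 footprints in opposite directions, with 283 nucleotides between them. Near the 5' end, 3 short Grin2b isoforms with 492 to 597 nucleotides of 5' untranslated region and 106 to 109 of coding sequence had 7 to 10 footprints in replicate 1 and 0 to 2 in replicate 2. For the one of 703 nucleotides, with 10 and 0, this was 14.2 per kilobase of transcript in replicate 1. Transcripts made up mostly of Grin2b 5' untranslated sequence thus had footprints in replicate 1, while the counts in replicate 2 were too few to compare.

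Grin1 (ENSMUSG00000026959), which encodes the obligatory subunit, had 69 and 10 footprints. Its levels of 67.5 (52.5 to 85.5) and 32.2 (15.5 to 59.3) were the farthest apart of the AMPA and NMDA members, at 49.9 ± 24.9 (SD, n = 2). The point ratio of Grin2b to Grin1 fell on opposite sides of 1. It was 0.649 in replicate 1 (0.460 to 0.917) and 1.43 in replicate 2 (0.655 to 3.37). On 1 transcript per gene and coding length, the interval of replicate 2 included 1 and overlapped that of replicate 1. A change of order between libraries was thus not resolved. Grin2b stood below Grin1 in both libraries with isoforms summed, at 0.222 and 0.302, and with whole transcript lengths, at 0.168 (0.119 to 0.238) and 0.371 (0.170 to 0.873); Grin1 has 14 listed isoforms and Grin2b 7. Grin2a stood at 0.0365 times Grin1 (0.00968 to 0.0978) in replicate 1 and 0.126 times (0.0134 to 0.591) in replicate 2, below 1 in both.

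**Figure D3:**
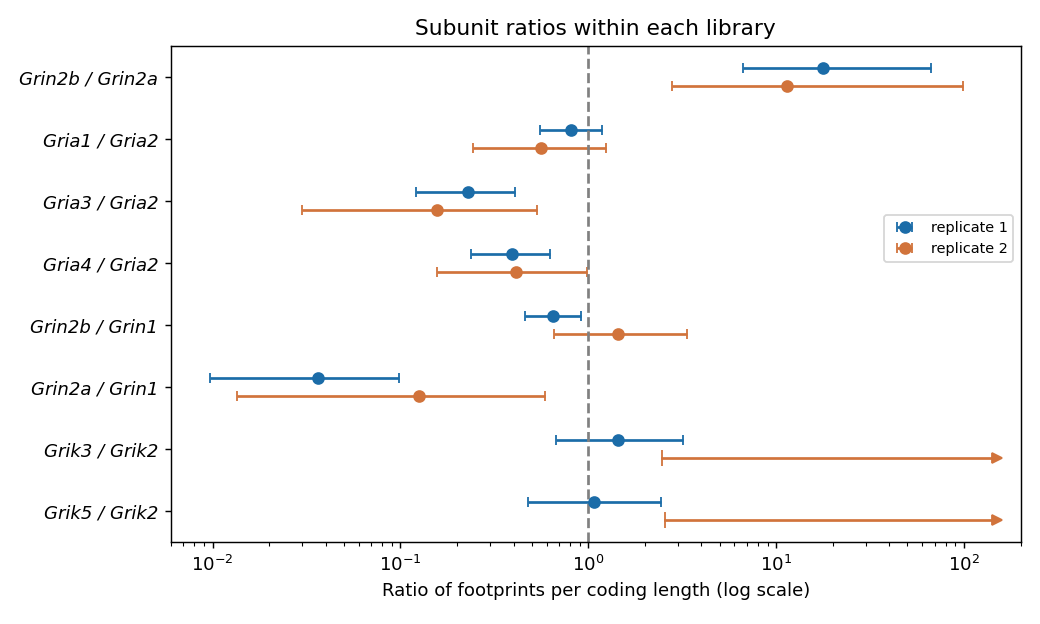
Ratio of footprints per coding length between pairs of subunits (horizontal log axis) in replicate 1 (blue) and replicate 2 (orange), with 95% Clopper-Pearson intervals; lines with an arrow start at the lower bound where the denominator had 0 counts, and the dashed line marks equal levels. Grin2b over Grin2a lies above 1 in both libraries at 17.8 and 11.4. The points of Grin2b over Grin1 lie on opposite sides of 1, and the interval of replicate 2 includes 1.

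The kainate receptor genes had fewer footprints, and their order rested on replicate 2. Grik3 (ENSMUSG00000001985), encoding the low-affinity subunit GluK3, had 19 and 11 footprints and levels of 18.7 and 35.6. Grik5 (ENSMUSG00000003378), encoding GluK5, a high-affinity subunit that needs a low-affinity partner to form a channel, had 15 and 12 footprints and levels of 13.8 and 36.4. Both stood higher in replicate 2. Grik2 (ENSMUSG00000056073), encoding the low-affinity partner GluK2, had 13 footprints and a level of 12.9 in replicate 1 and 0 in replicate 2, which allows a level of up to 9.82.

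In replicate 1 the ratio of Grik3 to Grik2 was 1.44 (0.677 to 3.18) and that of Grik5 to Grik2 1.07 (0.475 to 2.44), so the 3 genes were not separated there. In replicate 2, with 0 counts for Grik2, the lower Clopper-Pearson bound was 2.48 for Grik3 over Grik2 and 2.58 for Grik5 over Grik2. With 3 counts allowed for that 0, the ratios came to 3.62 and 3.71, without the counting error of Grik3 and Grik5. The 0 belongs to the representative transcript alone: another full-length Grik2 isoform had 10 and 2 footprints, and the 5 full-length isoforms ranged from 8 to 13 in replicate 1 and from 0 to 2 in replicate 2. Grik2 has 8 listed isoforms, and Grik3 and Grik5 have 1 each. Summed over isoforms, Grik3 stood at 0.313 and Grik5 at 0.232 times Grik2 in replicate 1, the opposite direction. In replicate 2 they stood at 1.81 and 1.85 times Grik2. The sum counts a shared fragment more than once, while 1 transcript leaves out fragments counted for other isoforms alone. Which of these is nearer for Grik2 was not tested.

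By mean level, the 10 genes ran from Gria2 through Grin1, Grin2b, Gria1, Grik3, Gria4, Grik5, Gria3 and Grik2 to Grin2a. Of the 9 pairs of neighbours in this order, 3 were separated in replicate 1 by an interval that left out 1 (Grin1 over Grin2b, Gria1 over Grik3, and Grik2 over Grin2a), 0 in replicate 2 and 0 in both. Of all 45 pairs, on the representative transcripts and coding lengths, 14 were separated in the same direction in both libraries, each with a 95% interval of its own and no allowance for the number of pairs. Grin2a was the lower gene in 7 of these 14 pairs, Grik2 in 4, Gria3 in 2 and Gria4 in 1. Gria2 was the higher gene in 4 and Grin2b in 3. The pairs separated in both libraries thus place Grin2a and, on its representative transcript, Grik2 below Gria1, Gria2, Grin1 and Grin2b, while most places in between were not resolved at this depth.

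Set among 13653 protein-coding genes with at least 1 count, Gria2 stood at percentile 82.9 of mean level, Grin1 at 78.3, Grin2b at 76.5 and Gria1 at 76.4. Grik3, Gria4 and Grik5 lay between percentiles 63.6 and 65.6. Gria3 was at 45.4, Grik2 at 29.0 and Grin2a at 16.4, where the median gene had a level of 15.0. Summed by family, AMPA members reached 148.9 ± 17.6, NMDA members 98.2 ± 22.2 and kainate members 58.7 ± 18.8 (each SD, n = 2). These are sums of the listed members, not of whole families. The AMPA sum holds all Gria genes. The NMDA and kainate sums leave out other Grin and Grik genes, among them Grin3a at a level of 29.5 and Grin2d at 12.4. In replicate 2 the NMDA sum of 82.5 and the kainate sum of 72.0 were closer than in replicate 1, where they were 113.9 and 45.4.

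The libraries differed for none of the 7 subunits that could be tested. A mean of at least 10 counts was reached by Gria1, Gria2, Gria4, Grin1, Grin2b, Grik3 and Grik5. Gria3, Grin2a and Grik2 stayed below it and were not tested. In the exact binomial test with Benjamini-Hochberg adjustment over all 5436 tested genes, 0 of the 7 passed 0.05, where 4.14% of all tested genes (3.99% higher and 0.147% lower in replicate 2) and 0.956% of tested protein-coding genes did. At an unadjusted p under 0.05 there were 2, Grik5 and Grin1. The share of all tested genes under that threshold was not counted, so these 2 cannot be set against it. With edgeR's exact test at a preset biological coefficient of variation of 0.2 there were 0. The test compares the reads of 2 libraries and not conditions.

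Grik5 had the highest ratio of the tested subunits, with CPM of 40.7 and 107.2 and a ratio of replicate 2 to replicate 1 of 2.64 (95% Clopper-Pearson interval 1.13 to 6.03, exact binomial p = 0.0195, adjusted p = 0.299). Grin1 had the lowest, with 187 and 89.3 CPM and a ratio of 0.478 (0.219 to 0.932, exact binomial p = 0.0234, adjusted p = 0.332). The other 5 tested subunits had ratios between 0.671 (Gria1) and 1.91 (Grik3), with intervals that included 1. The median ratio of the 7 was 1.01, against 0.989 over the tested protein-coding genes. The intervals were wide: for Grin2b, with the most footprints on its representative transcript, a ratio of 1.05 came with bounds of 0.628 and 1.70. These bounds carry no adjustment, and Grin1 and Grik5, whose ratios lay outside them, were not called either. Differences of that size and larger could thus go uncalled at this depth.

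**Figure D4:**
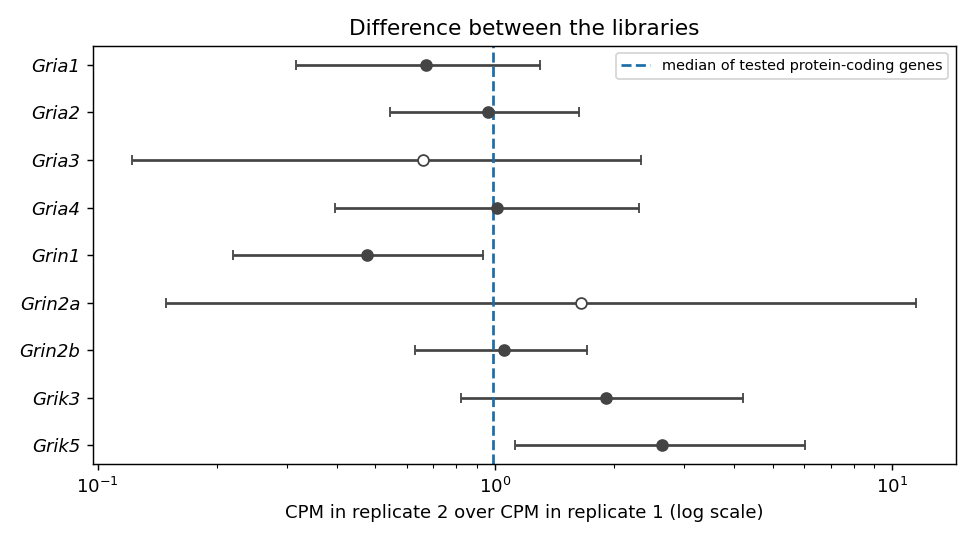
Ratio of CPM in replicate 2 to CPM in replicate 1 (horizontal log axis) for 9 subunits, with 95% Clopper-Pearson intervals; filled points were tested, open points fell below a mean of 10 counts, and Grik2 is left out because it had 0 counts in replicate 2. The intervals of Grin1 and Grik5 leave out the dashed median of protein-coding genes, on opposite sides, and none passed the adjusted test.

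The 10 genes have 62 listed isoforms, of which 31 have a coding sequence of at least 90% of the longest of their gene. Isoforms of a gene carried similar but not identical counts. The 2 Gria4 isoforms of identical lengths had 25 and 26 footprints in replicate 1 and 8 each in replicate 2. AMPA subunits are known for a pair of alternative exons of equal length, flip and flop, but the table does not say which isoform holds which. The 8 full-length isoforms of Grin1, which differ by alternative exons and span coding lengths from 2658 to 2880 nucleotides, ranged from 50 to 69 in replicate 1 and from 7 to 16 in replicate 2. The isoform highest in replicate 1 was not the highest in replicate 2: Grin1-005 had 69 and 10 and Grin1-004 had 50 and 16. The average over the 8 was 56.8 and 11.1.

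Transcripts annotated as retained introns numbered 13 among the 62, in Gria2, Gria3, Grik2 and Grin2a. In Gria2 the 5 of them had 7 to 43 footprints in replicate 1 and 3 to 16 in replicate 2. A transcript of Gria2 marked for nonsense-mediated decay had 50 and 18, close to the coding isoforms. Such transcripts contain exons of the coding isoforms, and the table does not separate footprints on shared exons from those on the intron. Whether similar sequence between AMPA or kainate paralogs also led to shared counts was not tested, since transcript sequences were not used here.

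**Figure D5:**
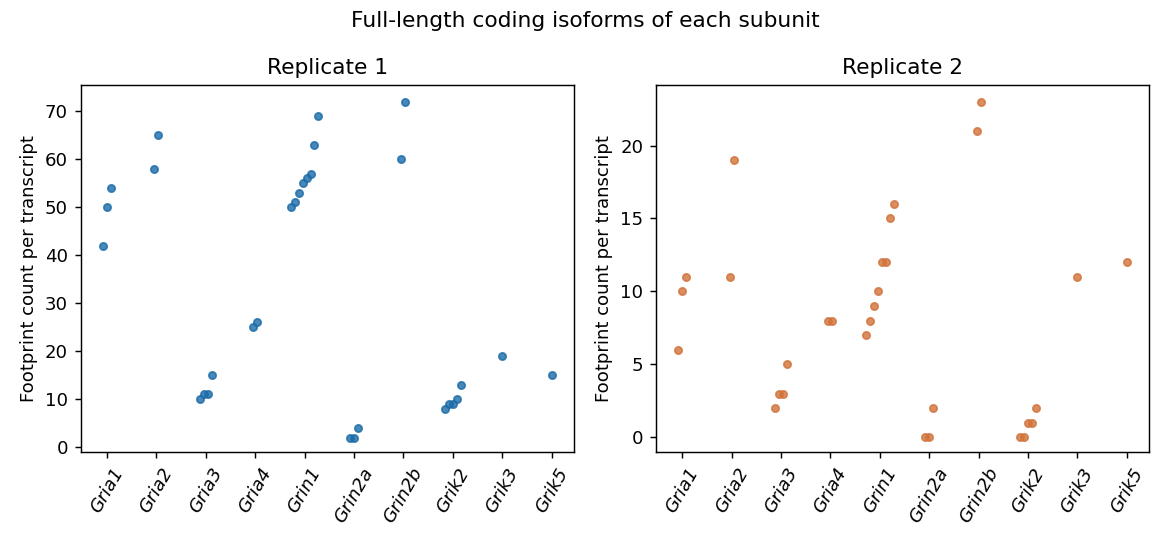
Footprint counts (vertical axis) of every isoform with at least 90% of the longest coding length of its gene, in replicate 1 (left) and replicate 2 (right), ordered by count within each gene. The 8 isoforms of Grin1 spread from 50 to 69 in replicate 1, while Grik3 and Grik5 have 1 isoform each.

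Outside the 10 members, the other subunit genes of the family stood at levels of 16.4 or less, apart from Grin3a. Of 8 such genes 7 had counts and 3 were tested, with 0 called. Grin3a, encoding the GluN3A subunit that lowers the calcium flow of young NMDA receptors, had 38 and 11 footprints and a level of 29.5 ± 0.986 (SD, n = 2). Grin2d, another GluN2 gene of early life, had 20 and 5 footprints and a level of 12.4 ± 1.70 (SD, n = 2). Grin2c, the GluN2 gene of mature cerebellar granule cells, had 0 in both libraries. The delta receptor gene Grid1 stood at 16.4 ± 1.75 (SD, n = 2).

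Auxiliary subunits of AMPA receptors, which set trafficking and gating of the channel, all had counts, 12 of 12, and 5 were tested with 0 called. Cnih2, a cornichon that slows AMPA receptor closing, had the highest level at 224.0 ± 23.2 (SD, n = 2) from 37 and 13 footprints on a coding sequence of 483 nucleotides. The TARP genes Cacng4 and Cacng8 followed, at 49.4 ± 31.4 and 48.3 ± 11.1 (each SD, n = 2). The kainate receptor partners Neto2 and Neto1 stood at 30.5 ± 5.22 and 26.6 ± 1.77, near the level of Grik3 at 27.1 ± 11.97 (each SD, n = 2).

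Among the metabotropic receptors, 8 of 8 had counts and 4 were tested with 0 called. Grm3, which encodes a receptor coupled to inhibitory G proteins and found on astrocytes and neurons, had 80 and 21 footprints and a level of 76.6 ± 7.84 (SD, n = 2). Grm5, encoding the main postsynaptic group I receptor of the forebrain, had 56 and 9 and a level of 32.1 ± 14.0 (SD, n = 2). Grm7 came out at 111.8 ± 24.4 (SD, n = 2), but on a representative transcript marked for nonsense-mediated decay. All footprints on its 4210 nucleotides were divided by a short coding sequence of 567 nucleotides.

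Of the 3 genes for RNA editing enzymes, 1 was tested and 0 called. Adar stood at 20.6 ± 10.8 and Adarb1, whose product edits the GluA2 pore, at 9.70 ± 7.81 (each SD, n = 2) from 12 and 1 footprints; Adarb2 was at 9.39 ± 1.28 (SD, n = 2). Of 8 genes for proteins that bind receptor tails, 5 were tested with 0 called. Nsf, an ATPase that binds GluA2, stood at 171.2 ± 4.81, Dlg4, the postsynaptic scaffold PSD-95, at 61.9 ± 11.5, and Pick1 at 42.3 ± 10.8 (each SD, n = 2). Over these lists 20 of 41 genes were tested. By the exact binomial test 0 passed after adjustment, where 4.14% of all tested genes and 0.956% of tested protein-coding genes did. At an unadjusted p under 0.05 there were 0, and the share of all tested genes there was not counted. By edgeR's exact test with the preset coefficient there were 0 as well.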

How the data were processed

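The authors deposited 1 table of whole-number counts of footprints per transcript, not normalised, for 109463 transcripts, with transcript, coding and untranslated lengths in nucleotides per the file headers. Fragments of 25 to 35 nucleotides were selected, per the labels' protocols. The submitters' processing notes name GRCm38.p4, Trimmomatic 0.36, Bowtie2 2.2.6 and SAMtools, without their role; the counting tool is not given in the sources used here. The columns were matched to the replicates by number; 0 columns of other samples were present.

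Members and lists were chosen with earlier results of these data known. The symbol is the transcript name without its suffix, and all 10 gene identifiers were in the name table. Each gene was taken as its transcript of highest summed count, the longer in a tie. Isoforms shared fragments in part, less so in genes with many transcripts: for pairs of equal coding length, with each untranslated region within 60 nucleotides and at least 20 counts, the squared difference over the sum averaged 0.202 in genes with 2 transcripts and 0.632 in genes with at least 10 (replicate 1), where 1 is the value if each fragment went to a single isoform. Levels of genes with many isoforms, such as Grin1, are less sure for that reason. Where fragments were divided among isoforms, 1 transcript holds only part of them and the level is too low. Grin1 had 69 and 10 footprints on its representative transcript, and 499 and 107 summed over isoforms, with shared fragments repeated.

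Library sizes were set by TMM in edgeR 4.0.16 (factors 1.07 and 0.931) over the genes that averaged 10 counts or more. With 1 group, no quasi-likelihood fit was possible, and the libraries were compared by a 2-sided exact binomial test per gene (scipy 1.17.1, Benjamini-Hochberg at 0.05). The test was also run on simulated counts drawn with Poisson error alone. That run says nothing of spread beyond counting error or of shared fragments. Ratios between genes carry 95% Clopper-Pearson intervals and levels exact Poisson intervals. A count of 0 allows up to 3 counts. These cover counting error only, since amplified reads that carry no molecular identifier can repeat a molecule. Named genes were the 10 members, at most 3 of each pathway list by level, and listed genes at 0. Alternatives were other isoform choices, length, scaling (DESeq2 1.42.0 size factors or totals), filters, a preset coefficient of variation, coding genes alone, and leaving out a replicate.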

Additional observations from a re-analysis of the deposited data

How the results depend on the processing

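No paired analysis was possible because the labels give a single group. The alternatives that average the full-length isoforms, or take the one with the shortest untranslated regions, were chosen after seeing the data. Fragments shared by isoforms and the shallow replicate 2 limit all single-gene values, and where no cause is given it was not tested.

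Ratios here are over both libraries. Grin2b over Grin2a, 15.6, became 9.63 with whole transcript lengths, 26.1 on the average of full-length isoforms and 40.01 on those with the shortest untranslated regions, which hold 2 Grin2a counts. With whole transcript lengths Gria1 over Gria2 went from 0.753 to 1.49, Gria3 over Gria2 from 0.213 to 0.428, Gria4 over Gria2 from 0.396 to 0.772, Grin2b over Grin1 from 0.748 to 0.194 and Grik3 over Grik2 from 2.28 to 1.03. The median level of the 10 went from 26.7 to 10.7, and the family sums to 58.9 (AMPA), 44.9 (NMDA) and 32.0 (kainate), since a longer divisor lowers every level. With isoforms summed, which repeats shared fragments, Grik3 over Grik2 reversed to 0.449, Grik5 over Grik2 went from 1.93 to 0.380, Grin2b over Grin1 to 0.236, Gria1 over Gria2 to 0.431 and Gria4 over Gria2 to 0.213; the median level was 37.4 and the AMPA and NMDA sums 297.3 and 265.0. Gria4 over Gria2 was 0.429 on averaged isoforms and 0.482 with the shortest untranslated regions.

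Leaving out 1 replicate each gave ranges of 11.4 to 17.8 for Grin2b over Grin2a, 0.564 to 0.809 for Gria1, 0.157 to 0.230 for Gria3 and 0.392 to 0.412 for Gria4 over Gria2, 0.649 to 1.43 for Grin2b and 0.0365 to 0.126 for Grin2a over Grin1, and the single values 1.44 for Grik3 and 1.07 for Grik5 over Grik2, which had no value without replicate 1. The median level ranged from 22.3 to 33.9, and the family sums from 136.5 to 161.4, 82.5 to 113.9 and 45.4 to 72.0.

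The number of subunits called between libraries was 0 in every alternative, with 0 to 9 tested; their smallest adjusted p was 0.0544, for Grin1 with isoforms summed by the exact binomial test. Over all genes the calls went from 225 to 605 with isoforms summed (383 of them higher in replicate 2, or 63.3%, against 96.4%), to 75 over the 764 genes that averaged 50 counts or more, to 131 with the preset coefficient of variation, and to 22 among coding genes alone.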
